A study of Arabidopsis thaliana with 18 samples.

Results

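Indigo Carmine (IC) is an indigoid dye that the study used at 0.5 μM as a photosensitizer of Arabidopsis cells, and its effect on transcript levels was described here against the untreated cultures that belong to it. The comparison takes 6 of the 18 arrays of the study. They are the 3 arrays titled Indigo Carmine 0.5 uM and the 3 control arrays whose titles name IC1, IC2 and IC3, so that each IC array has a control of its own number. The same 3 controls also serve the arrays labelled Methyl Violet (MV), which the study calls methylene violet and used at 0.5 μM. Both groups come from light-grown cell suspension cultures (ACSC) of the Columbia ecotype, which are dividing green cells in liquid medium and not a plant tissue. The IC cultures received the dye and the control cultures received no treatment. The growth light was 50 μE for all 6 arrays by the sample labels. Cultures were treated for 30 min under continuous light by the methods, while the labels name both light and dark incubations without saying which array had which. The numbers 1 to 3 mark biological replicates. The p-values rest on a spread estimated from all 18 arrays in 6 groups, and they cover no population wider than the cultures of this study. Total RNA was hybridized to Affymetrix ATH1 arrays, on which a set of short probes (a probe set) reads the 3′ part of a transcript, and all values below are the deposited log2 signals.

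A photosensitizer takes up light and passes the energy to molecular oxygen, which gives singlet oxygen, a short-lived and reactive form. In plants singlet oxygen arises mainly at the chlorophyll of photosystem II, and chloroplasts that make it signal to the nucleus. The nuclear response includes ethylene and jasmonate synthesis, ethylene response factors (ERFs), heat shock proteins, glutathione transferases and regulators of cell death. Rose Bengal (RB), a xanthene dye that the study used at the same 0.5 μM with its own 3 controls, is a strong source of singlet oxygen and serves here as the yardstick of such a response.

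The 6 arrays resembled each other closely. Array medians lay between 5 and 5.12, and every IC array correlated best with the control of its own number, with Pearson's r across probe sets of 0.993, 0.993 and 0.992. Other pairs of IC and control arrays reached 0.982 to 0.991, and IC arrays correlated with each other at 0.985 to 0.987. The difference between the 5′ and 3′ probe sets of actin, a sign of RNA length, was -2.67, -2.88 and -2.70 in control 1, 2 and 3 and -3.41, -3.12 and -2.56 in IC 1, 2 and 3. That of GAPDH was -1.12, -1.03 and -1.02 in the controls and -1.17, -1.27 and -0.92 under IC. The median of the 9 hybridization controls was 8.97, 9.69 and 8.40 in the controls and 9.46, 9.46 and 7.77 under IC. IC 3 was thus lowest in the hybridization controls and had the smallest 5′ to 3′ differences, while IC 1 had the largest difference for actin. The part of these values in the results below was not tested.

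No transcript differed from the control past the test under IC. Of 22746 probe sets, 0 (0%) were called by limma with the replicate number as a block at a Benjamini-Hochberg adjusted p under 0.05, and the smallest adjusted p was 0.9999. At an unadjusted p under 0.05 there were 504 probe sets (2.22%), of which 264 were higher (1.16%) and 240 lower (1.06%) under IC. That count was 191 without IC 1 and 1006 without IC 3. The differences were spread evenly around 0, with 49.8% of probe sets higher under IC and a median of -0.00067. Nearly all were small, since 99.5% lay between -0.5 and 0.5, and the 0.05 and 0.95 quantiles were -0.27 and 0.25. Only 2 probe sets had a log2 difference beyond 1, and both belong to plastid-encoded transcripts, petL and petG. In all 51 probe sets lay above 0.5 and 66 below -0.5. Plastid-encoded transcripts made up 17 of the 51 above 0.5 and 1 of the 66 below -0.5. In a bulk sample, a lower share of cells of one type and less RNA per cell cannot be told apart.

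The size of any effect of IC was bounded for most transcripts. The 95% interval of the log2 difference had a median half-width of 0.35, and the 0.05 and 0.95 quantiles of the half-width were 0.25 and 0.65. The whole interval lay within 2-fold in either direction for 22261 probe sets (97.9%) and within 1.5-fold for 16896 (74.3%). For 485 probe sets the interval reached past 2-fold. Of these, 127 reached past 2-fold only upward, 311 only downward and 47 both ways, and 40 of the 485 were plastid-encoded. These intervals are per probe set and are not widened for the number of probe sets. They include probe sets near the low end of the array, where intervals may not bound an effect. With only the probe sets of a mean signal above the median, 96.6% lay within 2-fold and 64.5% within 1.5-fold. An adjusted p above the threshold does not show that a transcript was equal in both groups.

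**Figure D1:**
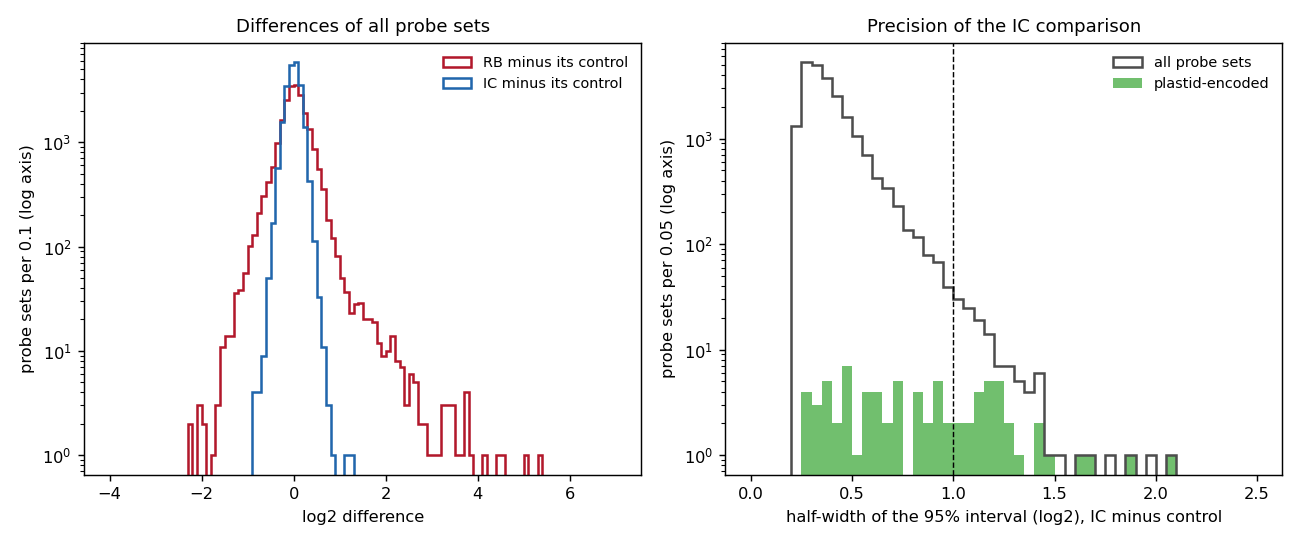
The left histogram counts probe sets (log axis) by log2 difference, IC or RB minus its own control, and the right one counts all and plastid-encoded probe sets (log axis) by the half-width of the 95% interval for IC, with a dashed line at 1. The IC values end at -0.88 and 1.22 while those of RB reach further on both sides, and most half-widths lie near the median of 0.35.

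The 3 pairs of cultures did not move alike. The SD of the paired difference over all probe sets was 0.28, 0.27 and 0.29 in pair 1, 2 and 3. Across probe sets the paired differences correlated at r = 0.19 between pairs 1 and 2, at -0.0024 between pairs 1 and 3 and at -0.21 between pairs 2 and 3, where each pair has cultures of its own and probe sets are not independent points. Pair 1 had 77 probe sets above 1 and 15 below -1. Pair 2 had 18 and 10, and pair 3 had 8 and 203. No probe set was beyond 1 in the same direction in all 3 pairs, and 6 were beyond 0.5. A probe set was higher under IC in 3 of 3 pairs in 3354 cases (14.7%) and lower in 3 of 3 in 2840 cases (12.5%). All 3 IC arrays lay above all 3 controls for 1336 probe sets (5.87%) and below for 754 (3.31%).

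The excess of pair 1 was upward and that of pair 3 downward, and a single culture often stood apart. Among the 77 probe sets above 1 in pair 1, 38 were plastid-encoded. Their median signal was 5.31, 6.10 and 6.52 in control 1, 2 and 3, 7.11, 5.96 and 5.73 in IC 1, 2 and 3 and 6.33, 6.48 and 6.63 in MV 1, 2 and 3. Control 1 lay outside the range of the other 8 arrays in 49 of the 77, and IC 1 in 25. In pairs 2 and 3 the same probe sets had median differences of -0.018 and -0.43. The 203 probe sets below -1 in pair 3, which hold 15 plastid-encoded and 6 heat shock transcripts, had medians of 6.04, 6.13 and 6.67 in the controls, 6.39, 6.44 and 5.38 under IC and 6.55, 7.03 and 5.87 under MV. IC 3 lay outside the other 8 arrays in 116 of the 203 and control 3 in 41. In pairs 1 and 2 these probe sets had median differences of 0.050 and 0.32. Both sets were chosen by the values of their own pair, so their size there is a description only.

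The transcripts that stood highest under IC with the same sign in all 3 pairs began with subunits of the plastid cytochrome b6f complex, which carries electrons between the photosystems. For petL the signal was 4.77, 6.13 and 6.44 in control 1, 2 and 3 and 7.99, 6.29 and 6.72 in IC 1, 2 and 3. The IC signals overlap the controls, and the low control 1 and the high IC 1 set the mean difference of 1.22 (95% interval 0.089 to 2.35). For petG it was 4.46, 5.34 and 6.01 in the controls and 7.28, 5.74 and 6.27 under IC, a difference of 1.16 (0.21 to 2.10). Here too pair 1 carries the difference, with 2.81 against 0.40 and 0.25 in the other pairs. AT3G14340, a protein-coding gene without a symbol in RefSeq, stood at 5.94, 5.99 and 5.45 in the controls and 6.26, 7.25 and 6.15 under IC, with all 3 IC arrays above the controls and a difference of 0.76 (0.14 to 1.38).

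Among the next in size, RLP29 and EXT3 were more even over the pairs. RLP29, a receptor-like protein of the leucine-rich repeat kind, had 3.68, 3.76 and 3.88 in the controls and 4.43, 4.35 and 4.45 under IC. The groups did not overlap, all 6 signals were near the low end of the array, and the difference was 0.63 (0.33 to 0.94). EXT3, an extensin that builds the protein network of the cell wall, had 4.62, 5.14 and 4.22 in the controls and 5.28, 5.74 and 4.85 under IC. Its groups overlapped but each IC array was above its own control, by 0.67, 0.59 and 0.63, and the difference was 0.63 (0.33 to 0.93). The name of its probe set marks probes that also match other genes, so EXT3 is uncertain as the source. The other 5 of the 10 highest were AT3G22104 (0.62), AT5G06630 (0.58), AT1G72060 (0.57), AT5G15320 (0.57) and SIS, a salt-induced serine-rich protein (0.56).

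AT1G08410 stood lowest under IC. It is the gene LSG1-2, an orthologue of the yeast GTPase Lsg1 that acts in maturation of the large ribosomal subunit. Its signal was 4.97, 6.69 and 5.76 in the controls and 4.35, 5.91 and 4.51 under IC. The groups overlapped because the cultures differed among themselves, while each IC array was below its own control and the difference was -0.88 (-1.25 to -0.51). This was the smallest p of all, 0.000205 before adjustment. The probe set is named by the array's maker as one that reads several transcripts. AT5G57120 had 6.36, 6.76 and 6.63 in the controls and 6.03, 6.55 and 4.59 under IC, so that IC 3 alone set most of its difference of -0.86. AT5G08630 had 5.44, 5.34 and 5.82 in the controls and 4.42, 4.88 and 4.84 under IC, without overlap, and a difference of -0.82 (-1.36 to -0.28). AT5G46270 had 4.61, 4.85 and 4.87 in the controls and 3.75, 3.98 and 4.44 under IC, also without overlap, and a difference of -0.72.

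The rest of the 10 lowest included a heat shock protein. HSP17.4, a cytosolic small heat shock protein that keeps unfolding proteins soluble, had 6.94, 10.12 and 10.41 in the controls and 6.86, 10.02 and 8.50 under IC. Pairs 1 and 2 differed by -0.087 and -0.097 and pair 3 by -1.91, so the difference of -0.70 (-1.74 to 0.34) came from 1 pair. The others were AT1G71210 (-0.71), Phox3 (-0.64), AT4G25730 (-0.62), AT3G20990, which RefSeq lists as a pseudogene (-0.59), and AT5G19900 (-0.58). The 5 smallest p-values belonged to AT1G08410, EXT3, RLP29 and 2 probe sets without a gene name (-0.77 and -0.61), all with an adjusted p of 0.9999. These genes were selected for their size or p in this very comparison, and their values are a description.

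**Figure D2:**
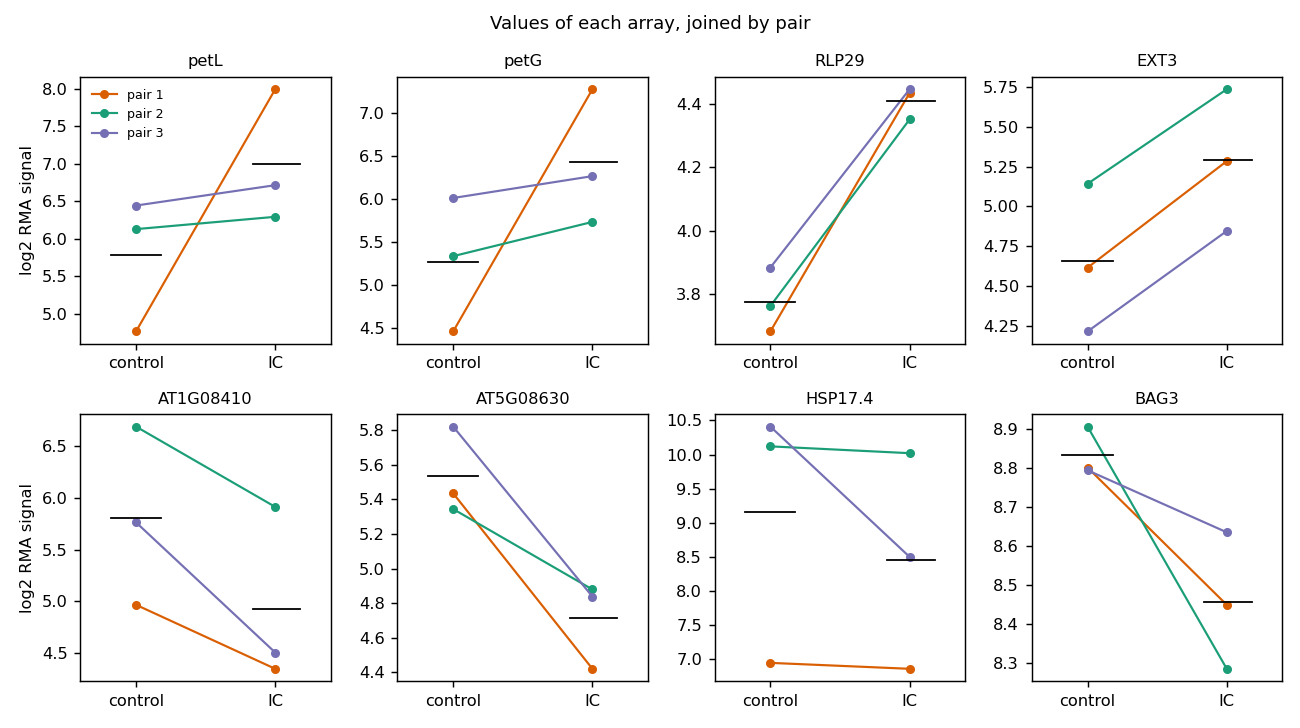
Each panel gives the log2 RMA signal of 1 gene on the 3 control and 3 IC arrays, with a coloured line joining the arrays of a pair, short bars at the group means and a vertical scale of its own. The lines of RLP29 and EXT3 slope up and those of AT1G08410, AT5G08630 and BAG3 slope down in all 3 pairs, while petL and petG depend mostly on pair 1 and HSP17.4 on pair 3.

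Gene lists and families were described by the direction and median of their members. A listed gene counts as measured only where the annotation used here matched it to a probe set. Of 30 lists and families with at least 5 members, 12 had a median above 0 and 18 below, and the medians lay between -0.13 (heat shock) and 0.17 (plastid-encoded). None of the 525 members, counted with repeats, was called. Within single pairs the medians reached further, from -0.23 to 0.97 in pair 1, from -0.34 to 0.11 in pair 2 and from -0.33 to 0.40 in pair 3. Only 5 lists or families had a median of the same sign in all 3 pairs. These were tau glutathione transferases and expansins, above 0, and antioxidant genes, reactive electrophile genes and MYB factors, below 0. In the same order, MV minus the same 3 controls had medians of 0.092, 0.077, -0.11, 0.0084 and 0.011. With the median of each array subtracted, the reactive electrophile median was 0.0066 and the others kept their sign. Over all probe sets 11333 were higher and 11413 lower.

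**Figure D3:**
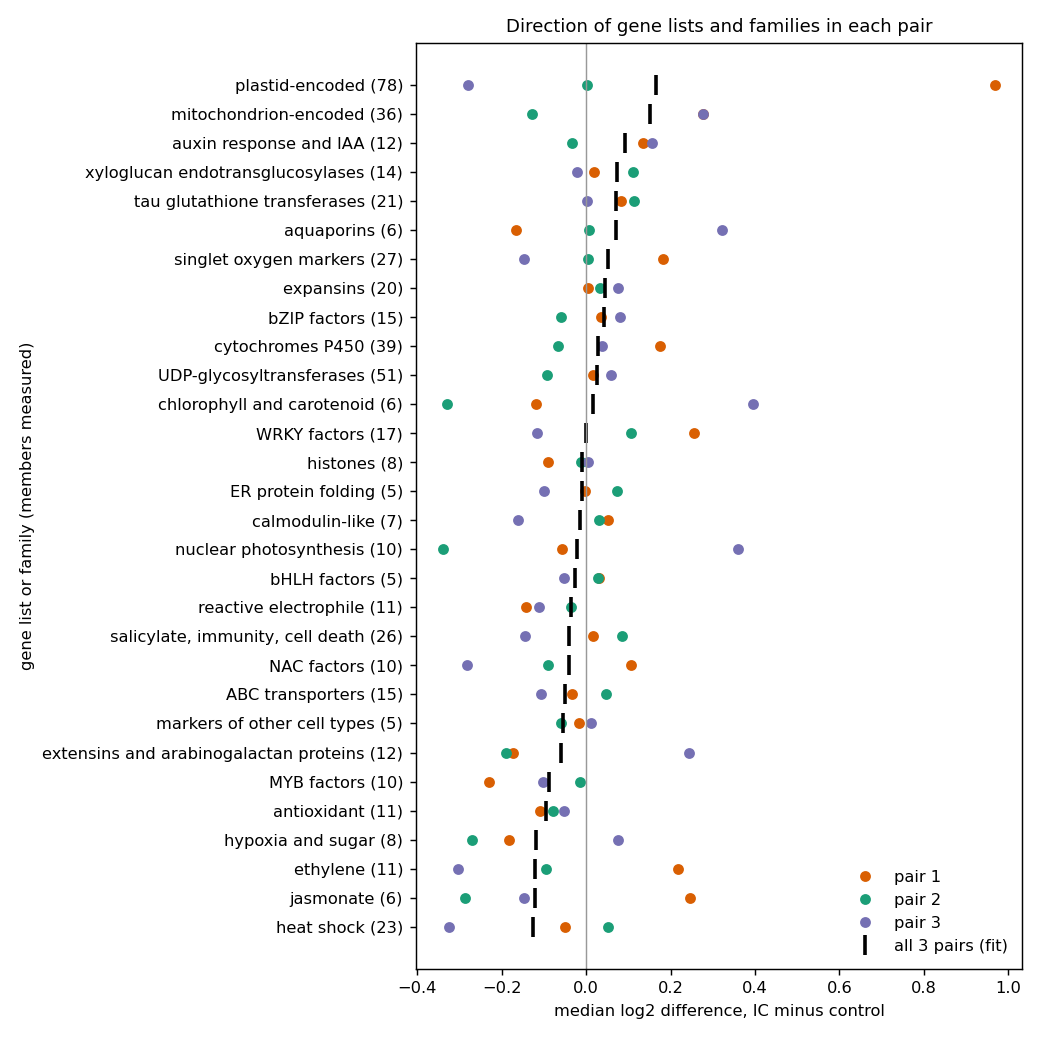
The plot gives the median log2 difference, IC minus control, of each list or family in pair 1, 2 and 3 and over all pairs, with the number of measured members. The pair medians of most lists lie on both sides of 0, and the plastid-encoded transcripts stand out in pair 1 at 0.97.

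The study lists 27 markers of singlet oxygen, taken from earlier work by others. They were raised by RB here and fell in cluster A of the study's clustering of RB-changed transcripts with data of other experiments. Further markers that RB raised fell outside that cluster. All 27 had a probe set, 17 were higher and 10 lower under IC, and the median was 0.051, with pair medians of 0.18, 0.0037 and -0.15. None had an unadjusted p under 0.05. The intervals of 25 of the 27 lay within 2-fold. The exceptions were ERF13 and CAF1a, whose intervals reached past 2-fold downward.

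The members with the highest values were AT4G36500, a gene without a symbol, and DLAH, a lipase of the DAD1-like family. AT4G36500 had 8.01, 6.79 and 6.65 in the controls and 8.79, 7.13 and 6.50 under IC, with a difference of 0.32 (-0.16 to 0.80). DLAH had 6.92, 5.53 and 5.63 against 7.22, 5.78 and 5.66, a difference of 0.19 (-0.51 to 0.90). Both were high in the arrays of number 1, treated and untreated. At the low end were CAF1a, which shortens the poly(A) tails of mRNA, with 7.54, 7.30 and 6.82 against 7.82, 6.82 and 6.04 (-0.32, -1.01 to 0.36), and NUDT21, a nudix hydrolase, at -0.25 (-0.77 to 0.28). Signalling members lay between, with the kinase MPK3 at 0.15 (-0.18 to 0.49), the heat shock factor HSFA8 at 0.076 and ERF5 at 0.12. The tightest interval belonged to the exocyst subunit EXO70B1, at 0.026 (-0.25 to 0.30).

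The effect of RB on the markers exceeded that of IC in a test of the difference. The median of the 27 under RB was 1.55, and the RB effect minus the IC effect was called higher for 19 of the 27, beside 316 of all probe sets (1.39%) called higher. The 27 were kept for their response on the RB arrays used here, so this count is not independent evidence of the direction. The largest difference was that of ERF13, at 4.63 with an adjusted p of 0.0047 by limma. The smallest was that of SIP4, a protein kinase that binds calcium sensors, at 0.91 with an adjusted p of 0.25. Without the block 7 of the 27 were called, beside 85 of all probe sets (0.374%) called higher.

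**Figure D4:**
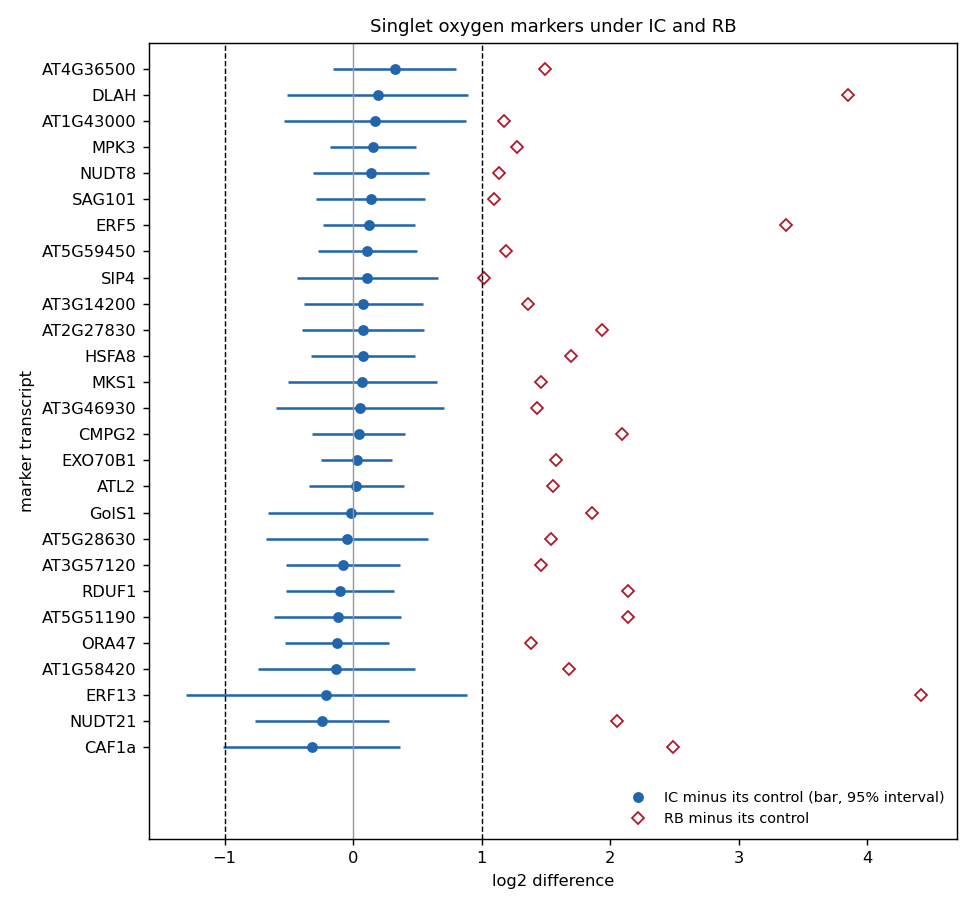
Points give the log2 difference between IC and its control for the 27 markers with the 95% interval, and open diamonds give the difference between RB and its own control. The dashed lines mark 2-fold, and 25 of the 27 intervals lie between them, while the RB values run from about 1 upward.

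Heat shock transcripts had the lowest median among lists of at least 5 members, with 5 of 23 measured members (of 31 listed) higher and 18 lower and a median of -0.13. The pair medians were -0.051, 0.051 and -0.33, with pair 3 lowest. Without both arrays of pair 3 the median was -0.026, without control 3 it was 0.063 and without IC 3 it was -0.14. Of the 23, 7 were lower in 3 of 3 pairs, beside 12.5% of all probe sets, and 1 was higher in 3 of 3, beside 14.7%. None of the 23 had an unadjusted p under 0.05. The cultures differed in these transcripts, with list medians of 6.69, 7.89 and 7.25 in control 1, 2 and 3 and 6.61, 8.23 and 6.93 in IC 1, 2 and 3, so that the cultures of number 1 were lowest and those of number 2 highest in both groups. HSP17.6A, a small heat shock protein, had 5.50, 9.76 and 8.63 in the controls and 5.64, 9.45 and 7.40 under IC, with a difference of -0.47 (-1.25 to 0.32). The large chaperones differed less from their controls. HSP70 had 11.82, 12.95 and 13.33 against 11.80, 13.04 and 13.27, a difference of 0.0014 (-0.54 to 0.54), and HSP101, which dissolves protein aggregates, stood at -0.13 (-0.88 to 0.63). MBF1C, a coactivator of the heat response, had -0.062, and the heat shock factors HSFA2 and HSFB2A had -0.17 and -0.042. AT1G52560, at 0.18, and BAG6, at 0.16, were the highest members. The list's median interval half-width was 0.70, and 14 of 23 intervals lay within 2-fold. RB minus IC was called higher for 14 of the 23, beside 1.39% of all probe sets, and for 1 without the block. Genes that the platform's annotation leaves unnamed entered this and the later lists only through the study's tables. By the paper these tables hold transcripts that changed under RB or hydrogen peroxide. Such counts for this and the later lists are therefore not independent evidence of the direction.

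Ethylene genes leaned to lower values, with 10 of 11 measured members (of 22 listed) lower and a median of -0.12. The sign was not shared by the pairs, whose medians were 0.22, -0.095 and -0.30. ERF5, an ethylene response factor, was the single member above 0. ERF2, the lowest, had 7.40, 7.66 and 7.15 in the controls and 7.73, 7.02 and 6.51 under IC, a difference of -0.31 (-1.05 to 0.42) with pair 1 upward and pairs 2 and 3 downward. ERF13 had 6.73, 6.38 and 5.67 against 7.51, 5.88 and 4.76, with the same split, and a difference of -0.21 (-1.30 to 0.88). ACS6, which makes the precursor of ethylene, stood at -0.12, ERF6 at -0.10, and EIN3, the central transcription factor of the pathway, at -0.077. RB minus IC was called higher for 7 of the 11, beside 1.39% of all probe sets, and for 4 without the block.

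Among jasmonate genes 2 of 6 measured members (of 28 listed) were higher and 4 lower, with a median of -0.12 and pair medians of 0.25, -0.29 and -0.15. OPCL1, a ligase of jasmonate synthesis, was at 0.13, LOX4, a lipoxygenase, at 0.12 and allene oxide synthase (AOS) at -0.18. MYC2, the main transcription factor of the response, had 9.41, 9.05 and 9.0 in the controls and 9.86, 8.69 and 8.10 under IC. Its difference of -0.27 (-0.91 to 0.37) joins a higher value in pair 1 with lower values in pairs 2 and 3. RB minus IC was called higher for 3 of the 6, beside 1.39% of all probe sets, with MYC2 among them at 2.49, and for 2 without the block.

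Genes of salicylate signalling, immunity and cell death numbered 26 of 40 listed, of which 8 were higher and 18 lower under IC, with a median of -0.041. PROPEP2, which encodes the precursor of a danger peptide, was highest, with 4.76, 4.50 and 3.97 in the controls and 5.54, 4.71 and 4.30 under IC. Each IC array was above its own control, and the difference was 0.44 (-0.0028 to 0.88). BAG3, a cochaperone, was lowest, with 8.80, 8.91 and 8.79 in the controls and 8.45, 8.28 and 8.63 under IC. All 3 IC arrays were below the controls and the difference was -0.38 (-0.65 to -0.10). It was 1 of 2 members with an unadjusted p under 0.05, beside 1.06% of all probe sets lower at that level. The other was a probe set that reads the immune receptor genes AT5G41750 and AT5G41740, at -0.28. Without the block 0 of the 26 members had an unadjusted p under 0.05, beside 0.519% of all probe sets lower. The lipase-like regulator PAD4 stood at -0.12, the transcription factors WRKY70 at 0.090 and MYB30 at -0.13, the ubiquitin ligase PUB17 at -0.12, the kinase MKK4 at -0.091, the cell death inhibitor BAP1 at -0.12, the nudix hydrolase NUDT7 at 0.028 and AKR2, an ankyrin repeat protein that guides proteins to the chloroplast envelope, at -0.22. RB minus IC was called higher for 13 of the 26, beside 1.39% of all probe sets, and for 4 without the block.

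The antioxidant list holds enzymes of defence, stress-responsive transcription factors and RBOHD, an NADPH oxidase that makes reactive oxygen. Under IC 10 of its 11 measured members (of 41 listed) were lower. The median was -0.095 and was below 0 in all 3 pairs, at -0.11, -0.077 and -0.053. The plastid glutathione reductase GR, which restores glutathione, was lowest. It had 8.06, 8.32 and 7.99 in the controls and 7.77, 7.71 and 7.96 under IC, all 3 below the controls, with a difference of -0.31 (-0.59 to -0.023). Without the block 0 of the 11 had an unadjusted p under 0.05. The stromal ascorbate peroxidase SAPX, which removes hydrogen peroxide, stood at -0.25, GSH1, the first enzyme of glutathione synthesis, at -0.20, the thylakoid peroxidase TAPX at -0.062 and the NADPH oxidase RBOHD at -0.095. The zinc finger factors RHL41 and STZ, which respond to oxidative stress, were at -0.24 and -0.099. For 10 of the 11 the interval lay within 2-fold, the exception being STZ.

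Genes that respond to reactive electrophiles, products of lipid oxidation, were higher for 4 and lower for 7 of 11 measured members (of 12 listed), with a median of -0.037. The glutaredoxin GRX480 had 5.31, 5.47 and 4.63 in the controls and 6.65, 5.45 and 4.40 under IC. Its difference of 0.36 (-0.42 to 1.13) came from pair 1, at 1.33, against -0.024 and -0.23. The glutathione transferase GSTU5 stood at 0.15 and the alkenal reductase AER at -0.10. A probe set shared by the glycosyltransferases UGT73B2 and UGT73B3 was lowest at -0.28. RB minus IC was called higher for 2 of the 11 with and without the block, beside 1.39% and 0.374% of all probe sets.

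Families that handle foreign and reactive compounds had intervals about as wide as those of all probe sets, of which 97.9% lay within 2-fold. Except for the ABC transporters, their signals were mostly near the low end of the array. Array medians were 3.58 to 3.88 for tau glutathione transferases, 3.57 to 3.72 for UDP-glycosyltransferases and 3.33 to 3.54 for cytochromes P450. Over all probe sets they were 5 to 5.12. Intervals at such low signals may not bound the effect on weakly detected members. Of 21 tau glutathione transferases, 16 were higher, with a median of 0.071 and pair medians of 0.082, 0.11 and 0.0013, and all 21 intervals lay within 2-fold. The range ran from GSTU16 at 0.18 to GSTU6 at -0.24. Of 51 UDP-glycosyltransferases, which add sugars to hormones and foreign compounds, 27 were higher and 24 lower, with a median of 0.026, and all 51 intervals lay within 2-fold. UGT71B1 alone had an unadjusted p under 0.05, at -0.30, and without the block 0 of the 51 had one. Of 39 cytochromes P450, 25 were higher and 14 lower, with a median of 0.028. CYP81F2, an enzyme of indole glucosinolate synthesis, stood highest at 0.35. Of 15 ABC transporters 6 were higher and 9 lower, with a median of -0.050, and ABCG35 was highest at 0.34.

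Plastid-encoded transcripts had the highest median among the 30 lists and families of at least 5 members and wide intervals. These genes of the chloroplast's own genome encode the cores of the photosystems, cytochrome b6f, ATP synthase, the NDH complex and the plastid ribosome and RNA polymerase. Of 78 probe sets 61 were higher and 17 lower under IC, with a median of 0.17. The pair medians were 0.97, 0.0026 and -0.28, with 68, 39 and 24 of the 78 higher in pair 1, 2 and 3. Over the 78 probe sets the median signal was 5.81, 6.37 and 7.78 in control 1, 2 and 3, 7.35, 6.38 and 6.76 in IC 1, 2 and 3 and 7.27, 7.51 and 7.17 in MV 1, 2 and 3. Control 1 was thus the lowest of these 9 arrays and control 3 the highest, and the IC arrays lay between them. The labelling kit primes on poly(A) tails, which plastid transcripts largely lack, and the part of this in the spread was not tested. The median interval half-width was 0.83, and 38 of the 78 intervals lay within 2-fold. Without both arrays of pair 1 the median was -0.17, and without those of pair 3 it was 0.49.

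By complex, the median was above 0 in every group and pair 1 stood highest. For 6 cytochrome b6f transcripts (pet) the median was 0.41 and pair 1 reached 1.48. For 15 photosystem II transcripts (psb) it was 0.34, with 12 higher, and for 7 of photosystem I (psa and ycf) 0.31, with 1.71 in pair 1. For 6 ATP synthase transcripts (atp) it was 0.20, with pair medians of 1.4, -0.16 and -0.37. For 11 of the NDH complex (ndh) it was 0.14, for 4 of the RNA polymerase (rpo) 0.14, and rbcL, the large subunit of Rubisco, stood at 0.22. The 20 ribosomal protein transcripts (rps and rpl) differed in sign between the pairs, with all 20 higher in pair 1, 12 in pair 2 and 2 in pair 3, and medians of 1.00, 0.21 and -0.62. rpl36 was the lowest plastid transcript, at -0.64 (-1.38 to 0.098), and rpl22 the next at -0.39, with -2.55 in pair 3.

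A few small photosystem II subunits differed evenly over the pairs. psbI had 8.01, 7.41 and 8.74 in the controls and 8.54, 7.95 and 9.26 under IC. Each IC array was above its own control, by 0.53, 0.54 and 0.52, while the groups overlapped, and the difference was 0.53 (0.063 to 1.00). psbM had 12.51, 12.12 and 12.29 against 12.84, 12.74 and 12.88, without overlap, and a difference of 0.51 (0.053 to 0.97). psbL had a difference of 0.34, with 0.41, 0.31 and 0.31 in the pairs. ndhC, a subunit of the NDH complex, had 10.01, 9.64 and 10.09 against 10.73, 10.23 and 10.19, without overlap, and 0.47 (0.090 to 0.85). Counting these, 6 plastid probe sets had an unadjusted p under 0.05, all higher, beside 1.16% of all probe sets. Without the block it was 4 plastid probe sets, all higher, beside 1.13% of all probe sets. Of the 15 photosystem II transcripts 3 had such a p with the block and 0 without it. All 3 IC arrays lay above all controls for 3 of the 78, psbM, ndhC and rpl32, beside 5.87% of all probe sets. psbI, psbM, psbL and ndhC were picked after their values were seen.

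**Figure D5:**
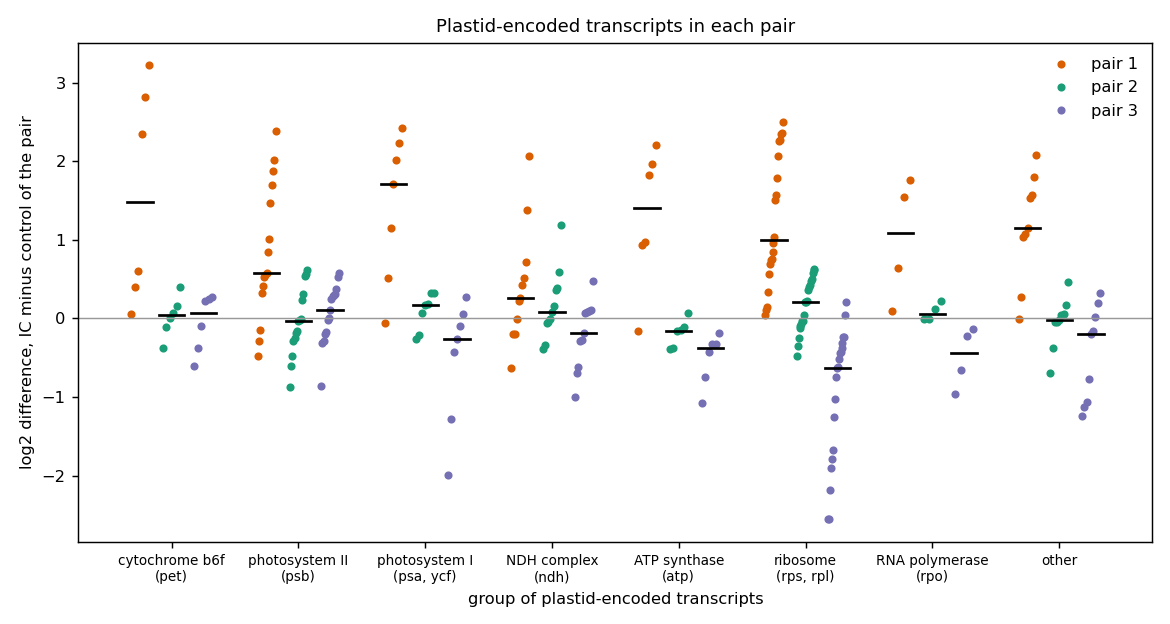
Points give the log2 difference, IC minus the control of the pair, of each plastid-encoded transcript, by group of transcripts and coloured by pair, and bars mark the medians. In every group the median stands highest in pair 1, and that of the ribosomal protein transcripts stands at 1.00 in pair 1 and -0.62 in pair 3.

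Mitochondrion-encoded transcripts were also higher for most members, 30 of 36, with a median of 0.15 and pair medians of 0.28, -0.13 and 0.28. The median was -0.13 without control 3 and -0.0081 without IC 1, and stayed above 0 without any other single array. MV minus the same controls had a median of 0.20, with 26 of the 36 higher. nad1, a subunit of respiratory complex I, stood at 0.51 (-0.18 to 1.2), with 0.52, 0.51 and 0.50 in the pairs, and nad4 of the same complex at 0.48 (-0.57 to 1.54), with 1.16 in pair 1. No member had an unadjusted p under 0.05, and 25 of the 36 intervals lay within 2-fold.

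Nuclear photosynthesis genes were highest in pair 3, where the plastid-encoded transcripts were lowest. Of 10 measured (of 54 listed), 5 were higher and 5 lower, with a median of -0.021, and the pair medians were -0.058, -0.34 and 0.36. In pair 2 none of the 10 was higher and in pair 3 all 10 were. Rubisco activase (RCA) was lowest, with 11.37, 11.21 and 11.37 in the controls and 10.94, 10.80 and 11.56 under IC, and the photosystem II subunit PSBW was highest at 0.18 (-0.21 to 0.56). All 10 intervals lay within 2-fold. The 6 genes of chlorophyll and carotenoid synthesis were likewise highest in pair 3, with pair medians of -0.12, -0.33 and 0.40 and an overall median of 0.016. Their range was from lycopene cyclase (LYC) at 0.12 to CHLI2, a subunit of magnesium chelatase, at -0.28. Protochlorophyllide reductase B (PORB) stood at 0.044.

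Among transcription factor families the medians were near 0. Of 17 WRKY factors, which act in defence, 8 were higher and 9 lower, with a median of -0.00016 and pair medians of 0.26, 0.11 and -0.12. WRKY4 was lowest, with 5.65, 5.39 and 5.36 in the controls and 5.35, 4.94 and 5.01 under IC. All 3 IC arrays were below the controls, and the difference was -0.37 (-0.63 to -0.10). Of 15 bZIP factors 10 were higher, with a median of 0.042, while bZIP44 had 7.12, 8.70 and 8.24 against 6.62, 7.91 and 8.02 and a difference of -0.50 (-0.80 to -0.21). Its groups overlapped, and each IC array was below its own control. Without the block 0 of the 15 bZIP factors had an unadjusted p under 0.05. Of 10 MYB factors 2 were higher and 8 lower (median -0.087), and of 10 NAC factors 4 were higher and 6 lower (median -0.042). Of the 7 calmodulin-like genes, which bind calcium, 3 were higher and 4 lower.

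Cell wall families differed in direction. Of 20 expansins, which loosen the wall, 13 were higher, with a median of 0.045, and EXPA15 stood at 0.31 (-0.11 to 0.74) and EXPB3 at -0.38 (-0.83 to 0.072). Array medians of the expansins, 3.32 to 3.65, were near the low end of the array. Of 14 xyloglucan endotransglucosylases, which cut and join wall polymers, 10 were higher, with a median of 0.074. Of 12 extensins and arabinogalactan proteins 6 were higher and 6 lower, with a median of -0.059, and EXT4 stood at 0.49 beside EXT3. All 3 measured pectin methylesterases were lower, with a median of -0.043.

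Of 12 auxin genes 8 were higher, with a median of 0.091, and 2 had an unadjusted p under 0.05, beside 1.16% of all probe sets. Array medians of the auxin genes, 3.42 to 3.72, were near the low end of the array. IAA34, a repressor of auxin signalling, had 3.19, 3.36 and 3.39 in the controls and 3.65, 3.89 and 3.51 under IC, without overlap and near the low end of the array, with a difference of 0.37 (0.082 to 0.65). The second was IAA29, at 0.27. Of 8 histones 4 were higher and 4 lower, and HTR12, the histone H3 of centromeres, was lowest at -0.41 (-0.76 to -0.051). Of 6 aquaporins, which pass water through membranes, 5 were higher, with a median of 0.070. Of 8 genes of hypoxia and sugar supply 7 were lower, with a median of -0.12 and pair medians of -0.18, -0.27 and 0.076.

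Reference transcripts that are used for scaling lay below 0, within the limits of their intervals. AT4G34270, a stable reference gene, stood at -0.13 (-0.38 to 0.13), the glycolytic enzyme GAPC1 at -0.13 and the probe set of elongation factor 1-alpha, which reads 4 loci, at -0.20. The pair medians of these 3 were -0.15, -0.35 and 0.045. Markers of other cell types had 5 of 20 listed genes matched to a probe set by the annotation used here, 1 higher and 4 lower. The guard cell factor FMA (3.16 to 3.59) and the root hair expansin EXPA7 (3.26 to 3.43) were near the low end of the array in all 6 samples. The xylem genes were not, with the cellulose synthases CESA4 at 8.20 to 9.47 and IRX3 at 8.29 to 9.44 and the protease XCP1 at 10.45 to 12.44. XCP1 had 12.44, 10.92 and 12.02 in the controls and 12.06, 10.45 and 12.05 under IC, and the arrays of number 2 were lowest in both groups. The part of these levels in other results was not tested.

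IC was also set directly against MV, the dye that shares these controls, at the same 0.5 μM. By limma with the block 0 of 22746 probe sets were called (0%), the smallest adjusted p was 0.082, and 888 (3.9%) had an unadjusted p under 0.05. Of the differences, 98.3% lay between -0.5 and 0.5 and 19 were beyond 1, and 96.6% of the 95% intervals lay within 2-fold. The smallest p belonged to DREB2A, a transcription factor of the drought and heat response. It had 5.98, 7.69 and 6.62 in the controls, 5.38, 7.42 and 6.26 under IC and 7.15, 8.67 and 7.96 under MV. Each IC array was below its control and each MV array above it. DREB2A was picked for that p, so these values are a description. IC minus MV was -1.57 (-2.01 to -1.14), IC minus control was -0.41 (-0.85 to 0.031) and MV minus control was 1.17. Both dye effects share the 3 controls. With a trend and a robust prior the adjusted p of IC minus MV was 0.031 and DREB2A was the 1 probe set called.

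The same gene also marks the distance to RB. DREB2A had an RB effect minus IC effect of 5.71, a difference of differences over the 2 control groups. Over all probe sets this difference was called for 554 (2.44%), of which 316 were higher under RB (1.39%) and 238 lower (1.05%), and without the block for 140. Leaving out 1 IC or control array gave 222 to 329 calls. Genes at the extremes of the IC comparison were among them in the opposite direction. EXT3 had -1.19 (adjusted p 0.0072 by limma), RLP29 -1.16 (adjusted p 0.0085), AT5G15320 -1.79 (adjusted p 0.024) and AT1G08410 1.83 (adjusted p 0.0016). For these genes the choice by the IC value itself enters the difference, so the direction was favoured by the choice. HSP17.4 had 4.09 (adjusted p 0.0072). Without the block the adjusted p was 0.32 for EXT3, 0.34 for AT1G08410 and 0.30 for HSP17.4, while RLP29 and AT5G15320 were still called, at 0.018 and 0.038. The controls of RB varied more than those of IC, with a typical (root mean square) deviation from their mean of 0.302 to 0.358 per array against 0.192 to 0.238, and the fit uses 1 shared spread.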

How the data were processed

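The authors processed the ATH1 arrays by RMA (background correction, quantile normalization and a summary of the probes of each set), and the deposited values are log2 signals of 22810 probe sets on 18 arrays. The software given in the submitters' processing notes is affy with RMA, of unstated version, and whether all 18 arrays were normalized in 1 run is not given in the sources used here. Quantile normalization gives all arrays the same distribution of probe signals before the summary, so a shift shared by most transcripts would not be seen. The summarized values still differ slightly between arrays, with medians from 4.91 to 5.14. Such values carry no reading depth, and the number of arrays limits the precision. The 64 control probe sets (AFFX) were left out.

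All 18 arrays were fitted as 6 groups with the replicate number within each set of cultures as a block (limma 3.58.1 in R 4.3.3, lmFit and eBayes, 8 residual and 4.63 prior degrees of freedom), and p-values were adjusted by the method of Benjamini and Hochberg over 22746 probe sets. The study's methods name limma and this adjustment but no block. Titles tie each control to the IC array of its number, and deviations from the group means of the same number correlated at 0.543, 0.523 and 0.216. Intervals are 95% intervals of limma. The alternatives were no block, the arrays of IC, MV and their control alone, the 6 arrays alone, a trend with a robust prior, a second quantile normalization, median centring, a filter on low signals, the control probe sets kept, and leaving out each array in turn. Leaving out whole pairs was added after seeing the data. The fit was tested on simulated data.

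Gene names came from the platform's annotation, updated through RefSeq (TAIR10.1), and for 895 probe sets from loci in the study's tables. By the paper those tables hold transcripts that changed under RB or hydrogen peroxide, so these names favour genes that responded. There was 1 locus for 14371 probe sets, several for 540 and none for 7835. Of 369 listed loci 160 were matched to a probe set by this annotation. The others may be read by probe sets that have no locus here, so they are not shown to be absent from the array. Families were taken by symbol, and 5 symbols of other proteins that matched a family's letters were removed after seeing the data. Where several probe sets read a gene, the brightest stands for it. Named genes were the 10 largest differences in each direction with 1 sign in 3 pairs and 1 locus, the 5 smallest p, up to 2 members at each end of a list or family, the genes the study names, the references, and the markers at the extremes of RB minus IC, and other members named as examples were chosen after their values were seen. Members and lists were chosen with earlier results of these data known. Python 3.11.15 with matplotlib 3.10.9 drew the figures.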

Additional observations from a re-analysis of the deposited data

Results flagged for a closer look

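The effect of RB minus the effect of IC, each against its own 3 controls, passed limma's test at an adjusted p under 0.05 for 554 probe sets (2.44%), of which 316 (1.39%) were higher under RB. Without the replicate block 140 were called. By list, this difference was called for 19 of the 27 markers of singlet oxygen, 14 of 23 heat shock genes, 13 of 26 genes of salicylate signalling, immunity and cell death, 7 of 11 ethylene genes, 3 of 6 jasmonate genes, 2 of 11 reactive electrophile genes and 1 of 11 antioxidant genes. All of these were higher under RB. In the same order, the counts without the block were 7, 1, 4, 4, 2, 2 and 1. The gene called in the antioxidant list was RHL41, a zinc finger factor. The markers were kept by the study for their response on the RB arrays. Members of the other lists that the platform's annotation leaves unnamed entered only through the study's tables of responding transcripts. The counts by list are therefore not independent evidence of the direction.

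Single genes for which the 2 effects differed in that test were ERF13 (4.63), HSP17.4 (4.09), AT1G08410 (1.83), a probe set without a gene name (1.22), RLP29 (-1.16), EXT3 (-1.19) and AT5G15320 (-1.79), as log2 differences of RB minus IC. All of them except ERF13 were picked for their size or p in the IC comparison, which favours a difference away from the IC value. Without the block HSP17.4, AT1G08410, the probe set without a gene name and EXT3 were not called, at adjusted p of 0.30, 0.34, 0.22 and 0.32. Groups of 3 arrays were too small to look for single arrays that stand apart by a fixed rule.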

How the results depend on the processing

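The count of called probe sets for IC against its control was 0 under every alternative run, with 504 at an unadjusted p under 0.05 in the fit reported. That unadjusted count moved to 1199 with the 6 arrays alone, to 151 with the filter on low signals, to between 191 and 1006 with 1 array left out, and to 204, 229 and 908 without both arrays of pair 1, 2 and 3. Without the replicate block it was 374, of which 256 were higher and 118 lower, and median centring gave 264 higher and 118 lower. The filter gave 51 higher and 100 lower, and the trend with a robust prior 318 and 165. The share of intervals within 2-fold ranged from 92.4% to 99.4% over the alternatives, and within 1.5-fold from 49.5% to 88.9%. RB minus IC was called for 140 probe sets without the block, for 222 to 329 with 1 array left out, and for 162, 197 and 324 without pair 1, 2 and 3. IC against MV gave 1 call with a trend and a robust prior and 0 otherwise. The cause of these changes was not tested.

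List medians kept their sign less firmly. With no array left out 19 of 240 medians had the other sign, with 1 array left out 45 of 180, and with 1 pair left out 24 of 90. Only 5 of the 30 lists kept their sign under every alternative, namely antioxidant, auxin, hypoxia and sugar, tau glutathione transferases and xyloglucan endotransglucosylases. The plastid-encoded median was -0.079 without IC 1 or without control 1, the ethylene median was 0.21 without IC 3, and the marker median was -0.022 without pair 1. With 3 pairs, a log2 difference smaller than the median half-width of 0.35 could not be told from 0 for a typical transcript, even before adjustment. After adjustment larger differences were missed too. RLP29, at 0.63 with a half-width of 0.31, had an adjusted p of 0.9999 by limma.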
